A study of Mus musculus with 6 samples.

Results

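The step from mouse embryonic stem cells to embryoid bodies of day 2 was followed on 4 of the 6 arrays of the series, the Noggin and the mock array of day 0 and those of day 2. Day 2 was compared with day 0 within each treatment, over 14337 of the 27495 probes, namely those whose level exceeded the median of its array on 2 or more of the 4. These probes name 8398 genes.

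All arrays carry RNA of J1 embryonic stem cells, a mouse line that grows as an undifferentiated culture in the presence of the cytokine LIF. Day 0 is labelled as the undifferentiated culture, 1 array from the Noggin group and 1 from the mock group. For day 2 the cells had been detached with trypsin, moved to medium lacking LIF in uncoated dishes, and left to form free-floating aggregates, the embryoid bodies. Noggin, a secreted protein that binds BMP ligands and keeps them from their receptors, had been given to its group at 150 ng/ml for 3 days beforehand and stayed in the medium until the second day of aggregation. The treatment label is worded alike on every array, mock included, and does not say whether the day 0 Noggin array was made before or after those 3 days. Nothing in the labels says that the arrays came from separate cultures, so the p-values measure the spread between these arrays alone. Age of the culture, loss of LIF, trypsin, change of dish and aggregation all differ between the days and cannot be told apart.

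Levels are given as the authors' log2 quantile-normalised intensities, on which every array has a median of 7.37 and a range from 6.6 to 15.7, and a difference is always day 2 minus day 0. Wherever 4 levels are listed, the Noggin array of a day precedes the mock array. No background had been subtracted, so the fold change of a dim gene is understated on this scale. Raw median intensities ran from 165 to 176.55 on the 4 arrays. With 1 array for each treatment and day, a test has 2 pairs, and its error is the disagreement between the pairs, moderated over all probes by limma.

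Mouse embryonic stem cells correspond to the naive epiblast of the blastocyst. In that state LIF activates the kinase Jak1 and the transcription factor Stat3, which uphold a circuit of transcription factors including Klf4, Tfcp2l1, Esrrb and Nanog. On leaving it, cells dismantle the circuit while keeping Pou5f1 and Sox2, and take up a formative programme like that of the epiblast after implantation, with Pou3f1, Otx2, Fgf5 and Dnmt3b. Embryoid bodies pass through this stage before germ layers appear, while cells in suspension exchange contacts with a dish for contacts with one another.

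The 4 arrays carried stem cell markers throughout. Pou5f1, Sox2, Nanog, Zfp42, Utf1 and Tdgf1 were above the array median on all 4. Several markers of other lineages were dim. Mesp1 of nascent mesoderm and Elf5 of trophoblast were above the median on no array. Cdx2 was above it on the day 2 arrays alone with a highest level of 7.46, and Pax6 of neuroectoderm reached at most 7.46. Of the primitive endoderm markers, Gata4 and Dab2 were above the median on all 4 arrays and Gata6 on the day 0 arrays alone. Gata4 stood at 8.52 and 8.38 on day 0 and 8.36 and 8.47 on day 2. Dab2 was at 8.13 and 7.96, then 8.62 and 8.4, and Gata6 at 7.58 and 7.55, then 7.21 and 7.18. Among fibroblast markers Dcn and Thy1 were above the median on all 4 arrays, Mmp3 on the day 0 arrays alone, Col1a1 on 1 day 0 array, and Postn on none. T, Mixl1, Sox1, Sox17, Sox7, Hand1, Col1a2 and Col3a1 were not analysed here.

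Over all probes tested, limma called 5755 different between the days at an adjusted p under 0.05, which is 40.1%. Of these, 2995 probes (20.9%) were higher and 2760 (19.3%) lower at day 2. The smallest adjusted p was 0.0128, shared by many probes, and the smallest difference called was 0.22, so the call alone says little about size. A change of at least 2-fold in both pairs was met by 498 probes (3.47%), 193 of them higher (1.35%, 139 named genes) and 305 lower (2.13%, 242 named genes), and all 498 were also called. Large falls outnumbered large rises: 43 probes fell 4-fold or more in both pairs and 12 rose by as much. The median difference over all probes tested was 0.005. A probe that passed the filter through 1 day alone had to differ. As 672 probes passed through day 0 alone and 647 through day 2 alone, counts over tested members are descriptions. Among genes named below, Sox21, Cer1, Gata6, Id4, Fgfbp1, Ccn1, Cd44, Jun and Lhx1 passed through day 0 alone, and Fgf8 and Lmo2 through day 2 alone. With no filter limma's adjusted p for these ran from 0.019 to 0.0356. Leaving out either day 0 array, with day as the only term, leaves 1 array for that day, and most or all calls were then lost. The calls thus depend on having both day 0 arrays in the fit. Differences stayed close: without the Noggin day 0 array that of Klf4 was -4.16 and that of Wt1 3.525. Without the mock day 0 array they were -4.22 and 3.445.

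The Noggin and mock pairs, which share no array, gave like differences. Across the 14337 probes Pearson's r between the pairs was 0.939 and Spearman's rho 0.885, over probes that are not independent and with days that were handled alike in both treatments. The median gap between the pairs was 0.11. The 305 probes that were 2-fold lower had a median of -1.56 in the Noggin pair and -1.37 in the mock pair, and 243 of them were lower by more in the Noggin pair. For the 193 that were 2-fold higher the medians were 1.37 and 1.29. Whether the pairs differ for a given probe cannot be tested, since that gap is the error of the fit.

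**Figure D1:**
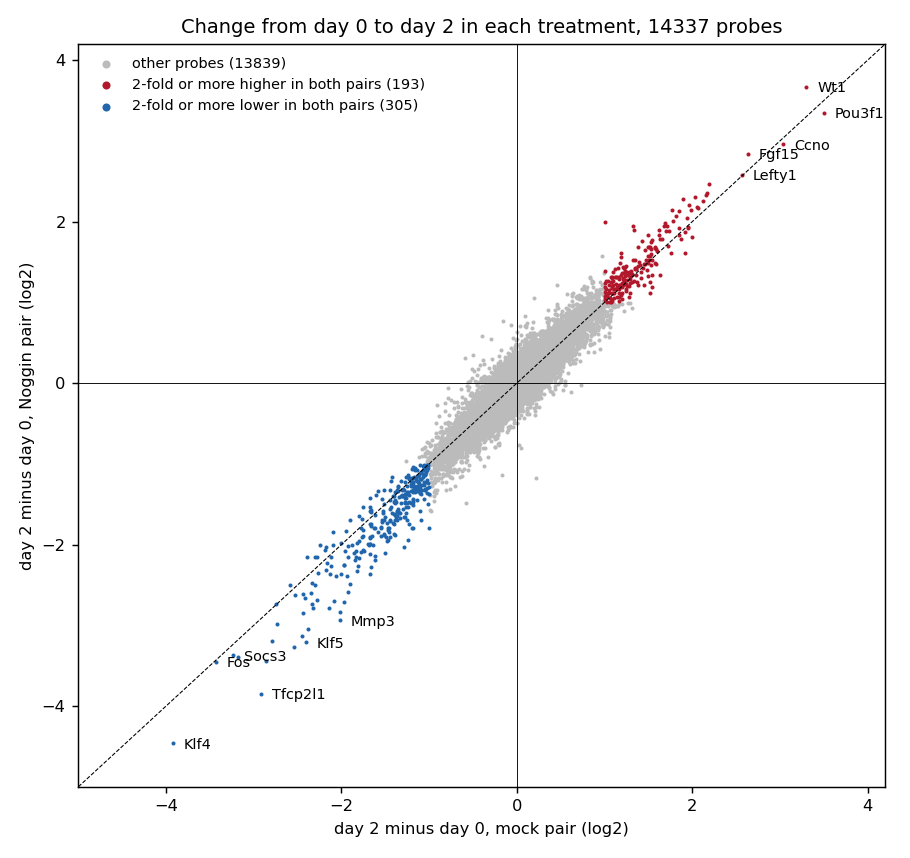
Day 2 minus day 0 for each tested probe, in log2, in the mock pair (horizontal) and the Noggin pair (vertical); the dashed line marks equal change. Coloured points moved 2-fold or more in both pairs (193 higher, 305 lower), and they lie along the dashed line, with Wt1 and Pou3f1 at one end and Klf4 at the other.

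Wt1 and Pou3f1 had the largest rises. Wt1, a zinc finger transcription factor best known from kidney and gonad, was at 6.97 and 6.89 on day 0 and at 10.64 and 10.19 on day 2. Both day 0 levels lay below the array median and both day 2 levels far above it. The difference was 3.49 (SE 0.117, 2 pairs), or 11.2-fold on this uncorrected scale. Pou3f1, a POU-domain transcription factor of the epiblast and the early neural plate, was at 7.27 on both day 0 arrays and at 10.62 and 10.77 on day 2. Its difference was 3.43 (SE 0.0636, 2 pairs), or 10.7-fold. As both genes were below the median on day 0, they passed the filter only through day 2, so their p is taken from a fit with no filter on all 27495 probes, where limma's adjusted p was 0.019 for each. The folds understate genes so dim: after background correction with normexp the differences of Wt1 and Pou3f1 were 4.43 and 4.11 at an offset of 50, and 5.585 and 4.735 at an offset of 16.

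Klf4 and Socs3 were among the 4 largest falls. Klf4, a zinc finger factor of the naive circuit, was at 11.94 and 11.88 on day 0 and at 7.48 and 7.96 on day 2. It dropped from well inside the upper range of the array to near its median, by 18.3-fold (difference -4.19, SE 0.164, limma adjusted p = 0.0128). A second, dimmer Klf4 probe fell by less, with a difference of -1.73. Socs3, the feedback inhibitor of Jak kinases that Stat3 induces, was at 10.87 and 10.98 on day 0 and at 7.50 and 7.74 on day 2. That was a 9.88-fold fall (difference -3.31, SE 0.0597, limma adjusted p = 0.0128). For neither gene did the days overlap, which follows from their place among the largest falls. In bulk RNA, fewer cells expressing a gene and less RNA per cell cannot be told apart, here and below.

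After Wt1 and Pou3f1 the next rises were of Ccno, a cyclin family member (difference 3.00), the secreted growth factor gene Fgf15 (2.74) and Lefty1, an inhibitor of Nodal signalling (2.58). Ccno was at 7.58 and 7.66 on day 0. The rest of the 15 largest rises lay between 1.99 and 2.33. They comprised the enzymes Car2 (a carbonic anhydrase), Cbr3 (a carbonyl reductase), Plcg2 (a phospholipase) and Hs6st2 (a heparan sulfate sulfotransferase), the Nodal-related ligand Gdf1, the kinase Pim2, the nuclear proteins Sall2 and Satb1, the vasohibin Vash2 and the membrane protein Prom1, whose second probe gave 0.10 and was not called. Every one of the 15 was 4-fold or nearly 4-fold higher. They were picked for the size of their rise, so separation of the days on them is no added support. Sall2 and Satb1 passed the filter through day 2 alone, and with no filter limma's adjusted p was 0.019 for both.

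The 15 largest falls mixed naive transcription factors with genes of other kinds. Klf4, Tfcp2l1, Tbx3, Klf5 and Tfap2c encode transcription factors, and Fos encodes a subunit of AP-1. The remainder were Socs3, the membrane protein gene Emp1 (difference -3.29), the growth factor gene Igf2 (-2.995), the lysosomal membrane gene Laptm5 (-2.91), the calcium-binding proteins Anxa2 (-2.86) and S100a6 (-2.71), the stress-induced Nupr1 (-2.75), the actin nucleator Cobl (-2.65) and the matrix proteoglycan Dcn (-2.58). Igf2 stood at 11.72 and 11.34 on day 0. This set too was picked for the size of its change, so the distance between the days is no added support.

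**Figure D2:**
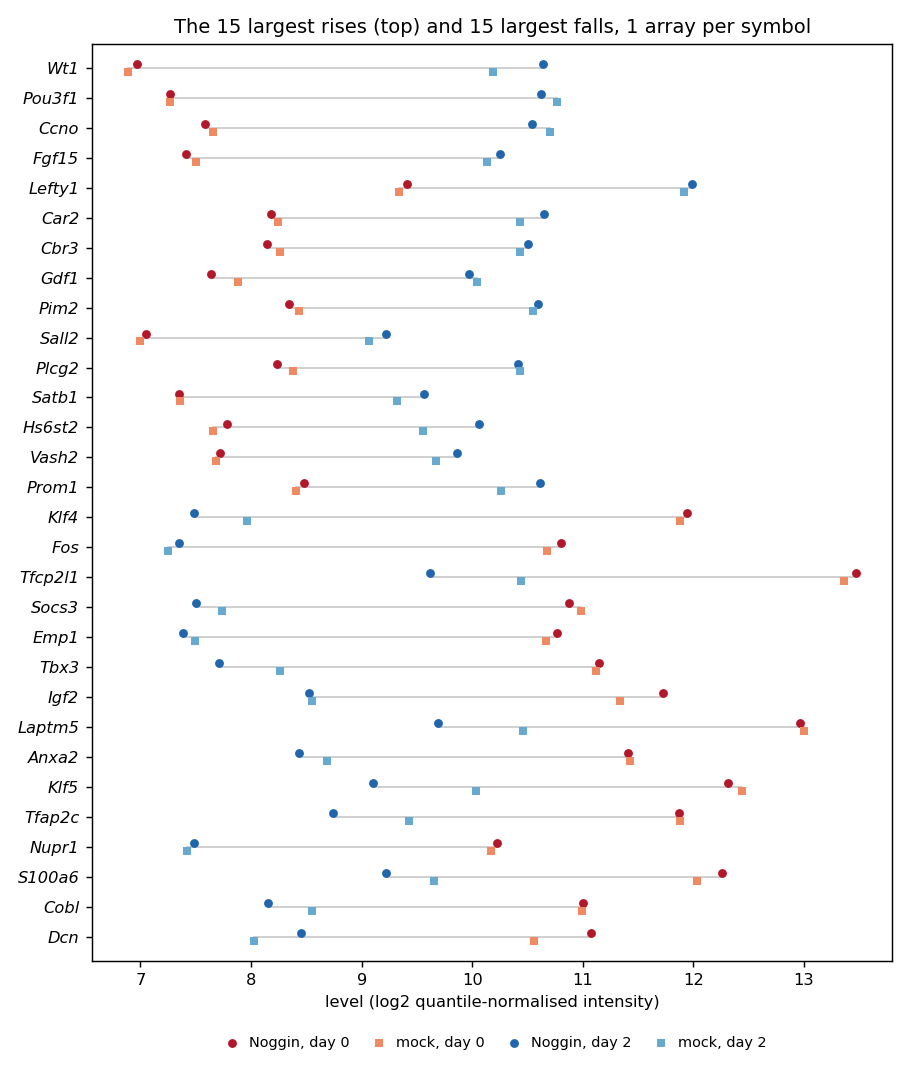
Levels on the 4 arrays (log2 quantile-normalised intensity, 1 array per symbol) of the 15 genes with the largest rises, above, and the 15 with the largest falls, below. In each gene the day 0 symbols (red and orange) stand apart from the day 2 symbols (blue), as for Klf4 with 11.94 and 11.88 against 7.48 and 7.96. The genes were picked for the size of this difference.

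Among naive pluripotency genes, 17 of the 18 with a probe were tested. Of these 12 fell, 2 rose and 3 did not pass the test, against 19.3% lower and 20.9% higher over all probes. Their median difference was -1.63, against 0.005 over all probes. Falls of 2-fold or more in both pairs were seen in 11 of them, against 2.13% of all probes. Tfcp2l1, a factor downstream of Stat3, was at 13.47 and 13.36 on day 0 and at 9.62 and 10.44 on day 2 (difference -3.39, SE 0.274, limma adjusted p = 0.0139). The orphan nuclear receptor Esrrb was at 13.12 and 13.16, then 10.41 and 11.19. Zfp42, also called Rex1 and much used as a reporter of the naive state, was at 12.30 and 12.26, then 9.94 and 10.59. In each of these 3 the days were far apart, and the day 2 Noggin array lay below the day 2 mock array.

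The T-box factor Tbx3 fell by 3.15, Klf5 fell by 2.81, the junctional adhesion molecule Jam2 by 2.43, the nuclear receptor Nr5a2 by 1.94, the kinase coactivator Tcl1 by 1.63, Klf2 by 1.40, the nuclear receptor Nr0b1 by 1.23 and the adhesion molecule Pecam1 by 0.79. These are the brightest probes; dimmer ones, all called lower too, gave -0.77 for Tbx3, -0.91 for Klf5, -1.50 and -0.80 for Jam2 and -0.40 for Pecam1. By the brightest probe, all 12 naive genes called lower had the larger fall in the Noggin pair, with medians of -2.54 and -1.88. The second Klf4 probe went the other way, with -1.65 in the Noggin pair and -1.8 in the mock pair. Tcl1 and this Klf4 probe passed the filter through day 0 alone. With no filter limma's adjusted p was 0.019 for both. The naive programme did not move as one. Dppa2, a chromatin regulator, and Zscan10 rose by 0.37 and 0.29, while differences of -0.43 for Dppa3, -0.04 for Dppa4 and 0.11 for Gbx2 did not pass the test, although other probes of Dppa4 were called higher by 0.36 and 0.46. Prdm14 was below the filter.

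The core pluripotency factors differed from one another. Nanog fell from 13.66 and 13.50 to 11.77 and 11.74, a difference of -1.83 (SE 0.0597, limma adjusted p = 0.0128), and its other probes gave -1.995 and -1.88. Pou5f1, which encodes the POU factor Oct4, was at 10.94 and 10.91 on day 0 and at 10.96 and 11.14 on day 2, and its difference of 0.13 was not called (limma adjusted p = 0.28). Sox2, its partner on DNA, went from 11.81 and 11.79 to 11.31 and 11.32, a small but called fall of 0.49, and its second probe gave -0.845.

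Of the 13 core genes tested, 6 fell, 3 rose and 4 were not called, against 19.3% lower and 20.9% higher over all probes. The median difference was -0.21 (-0.26 in the Noggin pair and 0.02 in the mock pair, and -0.08 under median scaling). Falls in Gdf3 (a TGF-beta family ligand), Dnmt3l (a cofactor of DNA methylation), Sall4 and Rif1 ranged from -0.66 to -0.29. The risers were Zfp281 (0.58), a zinc finger factor, Utf1 (0.51) and L1td1 (0.32). None of these reached 2-fold in both pairs except Nanog. Second probes of Sall4 (-0.07), Rif1 (-0.19) and Zfp281 (0.20) were not called.

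**Figure D3:**
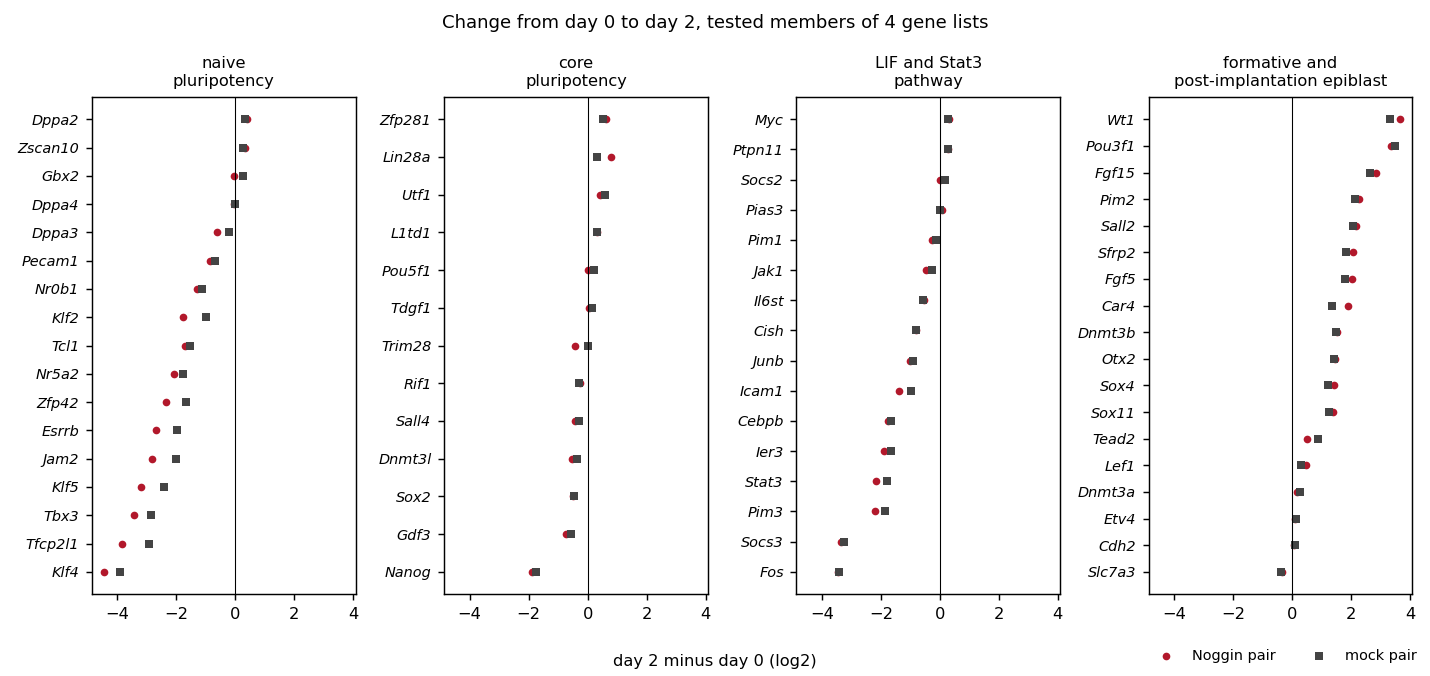
Day 2 minus day 0 (log2) in the Noggin pair (circles) and the mock pair (squares) for each tested gene of 4 lists. Most naive genes and LIF pathway genes lie left of 0, most epiblast genes right of 0, and Pou5f1 lies close to 0 in the core list.

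In the LIF and Stat3 pathway, falls included 1 receptor chain, Stat3 and target genes. Of 19 genes with a probe 16 were tested, of which 11 fell, 2 rose and 3 were not called. The shares over all probes were 19.3% lower and 20.9% higher. The median difference was -0.88 (-1.419 with normexp at offset 16, and -1.79 over members above the 75th percentile on 2 or more arrays). The shared receptor chain Il6st fell by 0.57 and the kinase Jak1 by 0.37. Il6st passed the filter through day 0 alone, and with no filter limma's adjusted p was 0.0225. Stat3 itself was at 10.77 and 10.71 on day 0 and at 8.60 and 8.91 on day 2, a fall of 1.99 (limma adjusted p = 0.0129). Its second probe gave -1.68.

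Among targets of the pathway, the kinase gene Pim3 fell by 2.02, Cebpb by 1.72, Icam1 by 1.19, Junb by 0.95 and the feedback inhibitor Cish by 0.81. The related inhibitor Socs2 was bright and its difference of 0.09 was not called. Myc, whose day 0 levels of 7.24 and 7.31 were below the array median, rose by 0.30, a call lost with no filter (limma adjusted p = 0.053), and the phosphatase gene Ptpn11 rose by 0.28, although its other probe gave -0.06. The receptor gene Lifr was below the filter. Junb passed the filter through day 0 alone, and with no filter limma's adjusted p was 0.0199.

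The promoter of Socs3 is shown because the gene had the largest fall among the feedback inhibitors and holds the letters that Stat factors recognise, TTCNNNGAA, a motif that reads the same on both strands. Shown are the 250 bases before the gene start in RefSeq on build GRCm38.p6, chr11:117969367-117969616 on the minus strand, read in the direction of the gene, with the match in capitals.
Socs3: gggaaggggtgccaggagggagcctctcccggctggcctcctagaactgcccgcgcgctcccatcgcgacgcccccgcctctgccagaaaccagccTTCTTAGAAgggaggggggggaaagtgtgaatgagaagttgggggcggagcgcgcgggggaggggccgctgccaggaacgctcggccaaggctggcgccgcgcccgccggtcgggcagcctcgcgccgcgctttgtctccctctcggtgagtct
The match begins 154 bases before the start. Of 14 tested pathway genes with a window, 2 held the motif, Socs3 and Icam1. Over the same 250 bases it was held by 8.13% of 27025 genes (7.02% of all 32851 windows). A match is a string of letters, not a measured site.

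Immediate-early genes, which are transcribed within minutes of a growth factor, serum or stress signal, were mostly lower at day 2. Of 11 tested, 9 fell, 1 rose (Myc) and 1 was not called, against 19.3% lower and 20.9% higher over all probes. The median difference was -0.84 (-1.797 with normexp at offset 16). Fos was at 10.80 and 10.68 on day 0 and at 7.35 and 7.25 on day 2, below the array median, a fall of 3.44 (SE 0.0466). It passed the filter through day 0 alone, and with no filter limma's adjusted p was 0.019. Egr1 was at 12.06 and 12, then 9.36 and 9.92. Both were thus far lower in the aggregates. The stress-response gene Ier3 fell by 1.79, the MAP kinase phosphatase gene Dusp1 by 0.87, and Fosb and Jun, which like Fos encode AP-1 subunits, by 0.84 and 0.66. Fos, Junb, Ier3 and Myc stand in both this list and the LIF list. The time between detaching the cells and lysis is not given for either day, and its part in these levels was not tested.

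Formative and post-implantation epiblast genes rose. Of 25 with a probe 18 were tested, and 14 rose, 1 fell and 3 were not called. The shares over all probes were 20.9% higher and 19.3% lower. The median difference was 1.46, and 12 were 2-fold or more higher in both pairs, against 1.35% of all probes. The list includes Pou3f1 and Wt1 and was drawn up with earlier results of these arrays known, so its count is not independent evidence of its direction. Fgf5, a growth factor gene of the post-implantation epiblast, was at 7.91 and 7.92 on day 0 and at 9.92 and 9.70 on day 2, a rise of 1.90 (SE 0.0813, limma adjusted p = 0.0128). Otx2, a homeodomain factor that directs Pou5f1 protein to new enhancers at this stage, was at 9.70 and 9.82, then 11.16 and 11.22. Its second probe gave 0.04, so the rise of 1.43 rests on the brighter probe.

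Dnmt3b, the de novo DNA methyltransferase, was already bright on day 0, at 12.85 and 12.65, and reached 14.37 and 14.12 on day 2. Its rise of 1.50 was matched by 2.00 on a second probe. The Wnt antagonist gene Sfrp2 rose by 1.94, the membrane-bound carbonic anhydrase gene Car4 by 1.62, and the SoxC genes Sox4 and Sox11 by 1.33 and 1.31. Tead2 and Lef1, DNA-binding partners of the Hippo and Wnt pathways, rose by 0.69 and 0.39. The amino acid transporter gene Slc7a3 was the one member that fell (-0.37). Differences for Dnmt3a (0.22), Etv4 (0.12) and Cdh2 (0.08), the N-cadherin gene, did not pass the test, and Sox3, Foxd3, Zic2, Zic5, Nkx1-2, Dkk1 and Igfbpl1 were below the filter.

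Of 11 DNA methylation and Tet genes tested, Dnmt3b among them, 4 rose and 3 fell, with a median difference of 0.03. Over all probes 20.9% were called higher and 19.3% lower. Tdg, a glycosylase of demethylation, rose by 0.66, the hydroxylase gene Tet1 fell by 0.37 and Dnmt3l fell by 0.45. The maintenance enzyme gene Dnmt1 differed by 0.03 and was not called. For Polycomb, 2 of 12 rose and 4 fell. Eed, a core subunit of the methyltransferase complex, had the largest called fall (-0.97), and the difference of -1.03 for Mtf2 was not called.

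In the Nodal pathway a feedback inhibitor and a ligand had the largest rises. Lefty1 was at 9.41 and 9.34 on day 0 and at 11.99 and 11.91 on day 2 (difference 2.58, SE 0.0463, limma adjusted p = 0.0128), so the days were clearly apart. Lefty2 rose by 0.70, Nodal by 0.53, the receptor gene Acvr2b by 0.52 and the ligand gene Gdf1 by 2.25. In contrast the convertase gene Pcsk6 fell by 1.48 and the secreted antagonist gene Cer1 by 0.84. Of 13 pathway genes tested 5 rose and 4 fell, against 20.9% and 19.3% over all probes. The median was -0.03, with 0.05 in the Noggin pair alone.

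Of 14 FGF and ERK feedback genes tested, 3 rose and 5 fell, against 20.9% and 19.3% over all probes, and the median difference was 0.002. The ERK phosphatase genes Dusp4 and Dusp6 rose by 1.14 and 0.93 (0.09 and 0.29 on second probes), and the FGF receptor antagonist gene Il17rd by 0.32. Egr1 fell by 2.39, the FGF carrier gene Fgfbp1 by 1.21, Spred1 by 0.52, the ligand gene Fgf4 by 0.34 and Spry2 by 0.30. Differences for Spry4 (0.15), Spry1 (-0.19), Etv5 (-0.03) and Etv4 were not called.

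BMP and Wnt targets had medians of -0.01 each, which turned to 0.01 and 0.03 under median scaling. The ligand gene Bmp4 fell by 1.69. Among the Id genes, inhibitors of helix-loop-helix factors that BMP signalling induces, Id4 fell by 0.74 and Id3 by 0.64, Id2 rose by 0.72, and the difference of Id1 (0.69) did not pass the test; 2 of 11 rose and 4 fell. Sp5, a direct target of Wnt signalling, fell from 9.57 and 9.47 to 7.74 and 7.52. Of 8 Wnt targets tested 3 rose and 2 fell, and over all probes 20.9% rose and 19.3% fell.

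Germ layer genes stayed dim, with a few exceptions. Of primitive streak and mesoderm genes 6 of 13 with a probe passed the filter. Eomes, a T-box factor, rose by 0.71 and Fgf8 by 1.38, the latter from 7.08 and 7.18, under the array median, to 8.49 and 8.53. The homeobox genes Gsc and Lhx1, both of the organiser, fell by 0.58 and 0.53, so streak genes did not move one way. In neuroectoderm 3 of 7 fell and none rose; Sox21 went from 9.34 and 9.40 to 7.18 and 7.10, although its second probe gave -0.65. Etv2, an ETS factor of the blood and endothelial lineage, rose from 7.33 and 7.31 to 9.27 and 8.63 (difference 1.63). It was below the array median on day 0 and passed the filter through day 2 alone; with no filter limma's adjusted p was 0.0302. Lmo2, also below the median on day 0, rose by 0.67, and Tal1 differed by 0.60, a call lost with no filter (limma adjusted p = 0.0675). The blood and endothelial list as a whole did not rise. Of its 8 genes tested 3 rose and 3 fell, with a median of -0.12 and Pecam1 lowest at -0.79. Of the 5 cardiac genes tested, Myl4 and Smyd1 fell and none rose. Over all probes 20.9% rose and 19.3% fell.

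The endoderm list had 2 of 13 higher, Lamb1 and Dab2, and 3 lower, Apoe (-1.65), Cer1 and Gata6 (-0.37). The shares over all probes were 20.9% higher and 19.3% lower. Of 6 trophoblast genes 3 fell and 1 rose. The highest difference was of Cdx2 (0.235), which passed the filter through day 2 alone and was not called with no filter (limma adjusted p = 0.073). Tfap2c, a factor also expressed in naive and germ cells, was at 11.87 and 11.88, then 8.74 and 9.43, whereas the keratin genes Krt7 and Krt8 fell by 0.59 and 0.38 from levels near 8. Among genes of germ cells 6 of 7 fell, from Tex19.1 (-1.13) to Stk31 (-0.36), while the X-linked homeobox gene Rhox5 rose by 1.32. Its relative Rhox9 fell by 0.86.

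**Figure D4:**
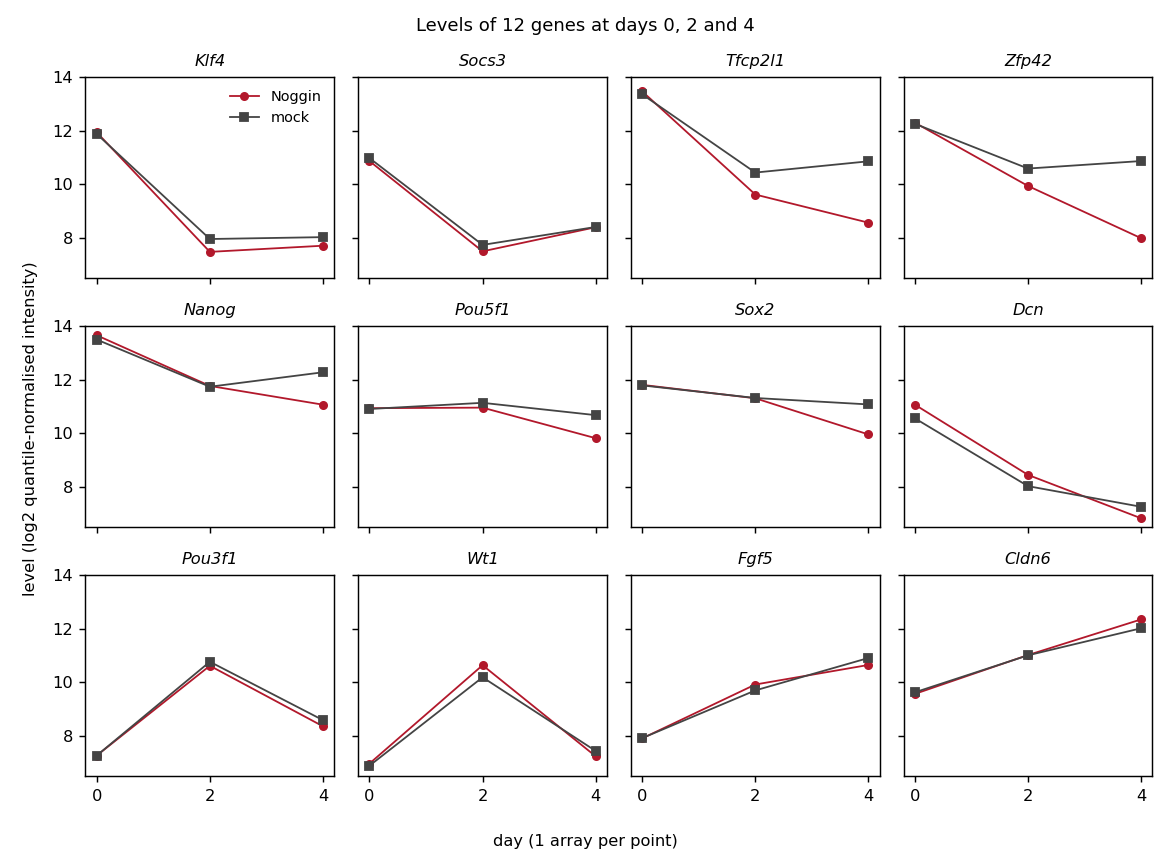
Levels (log2 quantile-normalised intensity) of 12 genes on the Noggin and the mock array of days 0, 2 and 4, 1 array per point. Pou3f1 and Wt1 peak on day 2 among the 3 days, and Klf4 stays low on day 4.

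The day 4 arrays, which entered no test here, place these levels in time. Wt1 was at 7.24 and 7.44 on day 4, close to its day 0 levels, and Pou3f1 at 8.36 and 8.59, between those of days 0 and 2. Klf4 was at 7.71 and 8.03, much as on day 2, and Socs3 at 8.40 on the Noggin and 8.41 on the mock array. Lefty1 had dropped to 7.93 with Noggin and 9.87 with mock. Zfp42 was at 7.99 with Noggin and 10.87 with mock, a wider gap between treatments than on day 2.

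Of 24 adhesion genes tested, 5 rose, 6 fell and 13 were not called, and the median difference was -0.09. These shares are near the 20.9% higher and 19.3% lower over all probes, so the list as a whole did not stand apart and its single genes carry the description. Cldn6, a tight junction claudin of embryonic epithelia, was at 9.57 and 9.63 on day 0 and at 11.02 and 11.01 on day 2, a rise of 1.42 (limma adjusted p = 0.0128). The integrin gene Itga3 rose by 0.97, the gap junction gene Gja1 by 0.58 and the plakophilin gene Pkp2 by 0.47. Cdh1, which encodes E-cadherin, the main adhesion molecule between stem cells, was at 10.79 and 10.73, then 11.31 and 11.30. That rise of 0.55 was not seen on its other probe, which gave -0.01.

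Among the falls, Cd44, a receptor for hyaluronan, was at 8.58 and 8.47 on day 0 and at 7.13 and 7.08 on day 2, though 1 of its other probes gave -0.03. The desmosomal cadherin gene Dsg2 fell by 1.19, the claudin gene Cldn4 by 1.03 and plakoglobin, Jup, by 0.95. Alpha-catenin, Ctnna1, fell by 0.37 and Perp by 0.34. Beta-catenin (Ctnnb1, -0.21), the integrin genes Itgb1 (-0.18) and Itga6 (-0.21), Cdh3 and the claudin genes Cldn3 and Cldn7 were not called.

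Genes of the actin cytoskeleton and of focal adhesions, by which spread cells hold on to a dish, were mostly lower. Of 28 tested 19 fell, 1 rose (Pfn1, profilin, by 0.34) and 8 were not called, with a median of -0.45. The shares over all probes were 19.3% lower and 20.9% higher. Anxa2 was at 11.41 and 11.43 on day 0 and at 8.43 and 8.69 on day 2. The galectin genes Lgals3 and Lgals1 fell by 2.47 and 1.53, and Ccn2 and Ccn1, targets of the Yap and Srf pathways, by 2.06 and 0.97. Falls in structural genes were smaller: non-muscle myosin Myh9 fell by 0.64, cofilin Cfl1 and alpha-actinin Actn1 by 0.57 each, zyxin Zyx by 0.41 and beta-actin Actb by 0.34. Vinculin (Vcl, -0.18) and talin (Tln1, -0.11) were not called.

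Basement membrane genes fell in 12 of 17 cases and rose in 3, against 19.3% lower and 20.9% higher over all probes. Their median was -0.40 (-0.707 with normexp at offset 16). Nidogen Nid1 was at 9.11 and 9.09 on day 0 and at 7.77 and 7.95 on day 2. The collagen IV gene Col4a2 fell by 1.22, the collagen chaperone gene Serpinh1 by 1.15, perlecan Hspg2 by 1.01, agrin Agrn by 0.86 and fibronectin Fn1 by 0.69. The laminin chains did not move together: Lamb1 rose by 0.89 and Lama5 by 0.48, while Lamc1 fell by 0.67 and Lamb2 by 0.32. Col18a1 rose by 0.68 from a bright level.

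Genes of fibroblasts, the cells often used as feeders for stem cell lines, were lower on day 2 at the same time. Of 24 with a probe 20 were tested, 12 fell, 1 rose and 7 were not called, with a median of -0.995. The shares over all probes were 19.3% lower and 20.9% higher. The median was -1.595 with normexp at offset 16, and -0.755 over members above the median on all 4 arrays. Dcn was at 11.07 and 10.56 on day 0 and at 8.45 and 8.03 on day 2, with -2.05, -1.49 and -0.32 on other probes, and the metalloproteinase gene Mmp3 at 10.23 and 9.35, then 7.29 and 7.33. Mmp3 also differed between the day 0 arrays, being higher on the Noggin array. The crosslinking enzyme gene Lox fell by 2.00, the matrix protein genes Fbln2 and Col6a1 by 2.31 and 1.70, and the surface antigen gene Thy1 by 0.98. Mmp3, Lox and Col6a1 passed the filter through day 0 alone, and with no filter limma's adjusted p was 0.0285, 0.0192 and 0.0207. Fbln1 rose by 0.76, and Vim (-0.07), Twist1 (0.06) and Acta2 (-0.54) were not called. Summed over the list, the intensity was 17345 and 14861 on day 0 and 6296 and 6712 on day 2, and of the 5 fibroblast markers measured, Dcn, Thy1 and Mmp3 fell, while Col1a1 and Postn were dim on every array, at 7.45 and 7.30 or less.

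Inflammatory genes moved with them. Of 11 tested 9 fell, 1 rose and 1 was not called, against 19.3% lower and 20.9% higher over all probes. The median difference was -1.255, and -0.795 over members above the median on all 4 arrays. The summed intensity went from 6501 and 5988 to 2734 and 2981. The chemokine genes Cxcl1 and Ccl7 fell by 2.40 and 1.90, the prostaglandin synthase gene Ptgs2 by 1.71, the protease inhibitor gene Timp1 by 1.58 and Il6 by 1.44. Ccl7, Ptgs2 and Il6 passed the filter through day 0 alone, and with no filter limma's adjusted p was 0.0202, 0.019 and 0.019. Cxcl12 was the exception, at 7.62 and 7.39 on day 0 and 9.11 and 8.97 on day 2. The labels name no feeder cells. The part of fibroblasts in the falls of the fibroblast, inflammatory, actin, basement membrane, immediate-early and LIF lists was not tested.

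Sterol synthesis genes rose nearly throughout. Of 19 with a probe 18 were tested, 16 rose and none fell, against 20.9% higher and 19.3% lower over all probes. The median was 0.85 (1.283 with normexp at offset 16), and 8 were 2-fold or more higher in both pairs, against 1.35% of all probes. Fdps, farnesyl diphosphate synthase, was at 9.92 and 9.91 on day 0 and at 11.70 and 11.78 on day 2, a rise of 1.83 (SE 0.0531, limma adjusted p = 0.0128). Hmgcs1, which makes HMG-CoA at the entry of the pathway, was at 12.08 and 12.11, then 13.57 and 13.61. Neither gene showed overlap of the days or a gap between treatments on day 2 of more than 0.08.

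Further along the route Idi1 rose by 1.31, Sqle, which forms squalene epoxide, by 1.12, Lss, which closes the ring, by 1.28, and the demethylase genes Cyp51 and Msmo1 by 1.67 and 1.60. The regulators Srebf2, the transcription factor of the pathway, and Insig1, its brake, rose by 0.59 and 0.61. The sterol carrier gene Stard4 rose by 1.09. Ebp (-0.15) and Sc5d (0.11) did not pass the test, and Mvk was below the filter.

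The promoters of Hmgcs1, Cyp51 and Lss are shown since these genes act at the entry of the route, after ring closure and at ring closure, and all rose. Each is the 250 bases before the gene start in RefSeq on build GRCm38.p6, in the direction of the gene. They are chr13:119690101-119690350 on the plus strand, chr5:4104698-4104947 on the minus strand and chr10:76531355-76531604 on the plus strand. Capitals mark CCAAT boxes, searched as ATTGG on both strands, and the core of the sterol regulatory element, searched as TCACNCCAC on both strands.
Hmgcs1: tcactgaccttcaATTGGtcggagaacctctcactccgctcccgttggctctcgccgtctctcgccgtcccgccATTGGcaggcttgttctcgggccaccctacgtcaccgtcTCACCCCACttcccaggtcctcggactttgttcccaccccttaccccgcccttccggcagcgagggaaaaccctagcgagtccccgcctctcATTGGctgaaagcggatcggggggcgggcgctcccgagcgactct
Cyp51: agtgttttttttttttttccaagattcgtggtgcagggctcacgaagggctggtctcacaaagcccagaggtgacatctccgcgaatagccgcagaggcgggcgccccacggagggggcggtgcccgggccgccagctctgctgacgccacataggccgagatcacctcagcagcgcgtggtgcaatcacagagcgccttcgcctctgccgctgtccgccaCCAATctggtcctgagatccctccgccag
Lss: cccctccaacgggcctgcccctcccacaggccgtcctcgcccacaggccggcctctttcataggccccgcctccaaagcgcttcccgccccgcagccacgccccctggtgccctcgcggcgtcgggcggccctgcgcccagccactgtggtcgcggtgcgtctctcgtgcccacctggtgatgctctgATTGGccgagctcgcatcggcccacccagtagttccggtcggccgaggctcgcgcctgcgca
All 15 of the tested sterol genes with a window held a CCAAT box, against 37.49% of 27025 genes (33.85% of the 32851 windows), and 1 of the 15, Hmgcs1, held the sterol element in this spelling, against 1.22% of genes (1.05% of windows). The matches of the 2 motifs do not overlap in Hmgcs1. Its sterol element begins 137 bases before the start. The shares of genes are over all genes with a window, tested on these arrays or not. As for Socs3, a match is a string of letters, not a measured site.

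Glycolysis and hypoxia genes leaned lower: of 22 tested, 13 fell, 3 rose and 6 were not called, with a median of -0.30. The shares over all probes were 19.3% lower and 20.9% higher. The glucose transporter gene Slc2a3 fell from 13.68 and 13.72 to 11.78 and 12.07. The hypoxia-responsive genes Vegfa and Ndrg1 fell by 1.82 and 1.19, and the glycolytic enzyme genes Pfkp, Hk1 and Pgk1 by 1.28, 0.77 and 0.66. Ldha, lactate dehydrogenase, rose by 0.95, Egln3 by 0.58 and the pyruvate kinase gene Pkm by 0.29, and Gapdh differed by 0.02 without a call.

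The list of amino acid and endoplasmic reticulum stress genes moved both ways. Of 17 tested, 10 fell and 6 rose, against 19.3% lower and 20.9% higher over all probes. Asns, asparagine synthetase, was at 13.03 and 12.93 on day 0 and at 10.87 and 10.81 on day 2. Nupr1, Slc7a5, Shmt2, Psat1 and Atf4 also fell, with differences of -2.75, -1.23, -1.11, -0.89 and -0.45. The chaperone genes Pdia4, Hsp90b1, Pdia6 and Hspa5 rose by 0.67, 0.54, 0.46 and 0.31, and their regulator Xbp1 by 0.62. In the heat shock list the small heat shock protein gene Hspb1 fell by 1.66 and the mitochondrial chaperonin genes Hspd1 and Hspe1 rose by 0.72 and 0.36.

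Housekeeping groups stayed near the shared centre, and their calls stand against 20.9% higher and 19.3% lower over all probes. Of 30 cell cycle and replication genes 5 rose and 4 fell, led by the inhibitor Cdkn1c, which rose from 8.67 and 8.65 to 10.28 and 10.41. Cyclin E1, Ccne1, rose by 0.70 and Mki67 fell by 0.34. Of 36 ribosomal protein genes 5 rose and 4 fell (median -0.03), and of 26 respiratory chain genes 4 rose and 5 fell (median -0.04). Scaling to a common median in place of quantiles turned those medians to 0.09 for the ribosomal and 0.09 for the respiratory list. Among genes of the last paragraphs, another probe was not called for Pfkp (-0.11), Ndrg1 (-0.59), Pdia6 (-0.05), Atf4 (-0.19), Actb (-0.12 and -0.14), Fn1 (-0.28), Insig1 (0.30), Spred1 (-0.09) and Mki67 (-0.23). The p53 targets Cdkn1a and Mdm2 fell by 0.85 and 0.79.

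**Figure D5:**
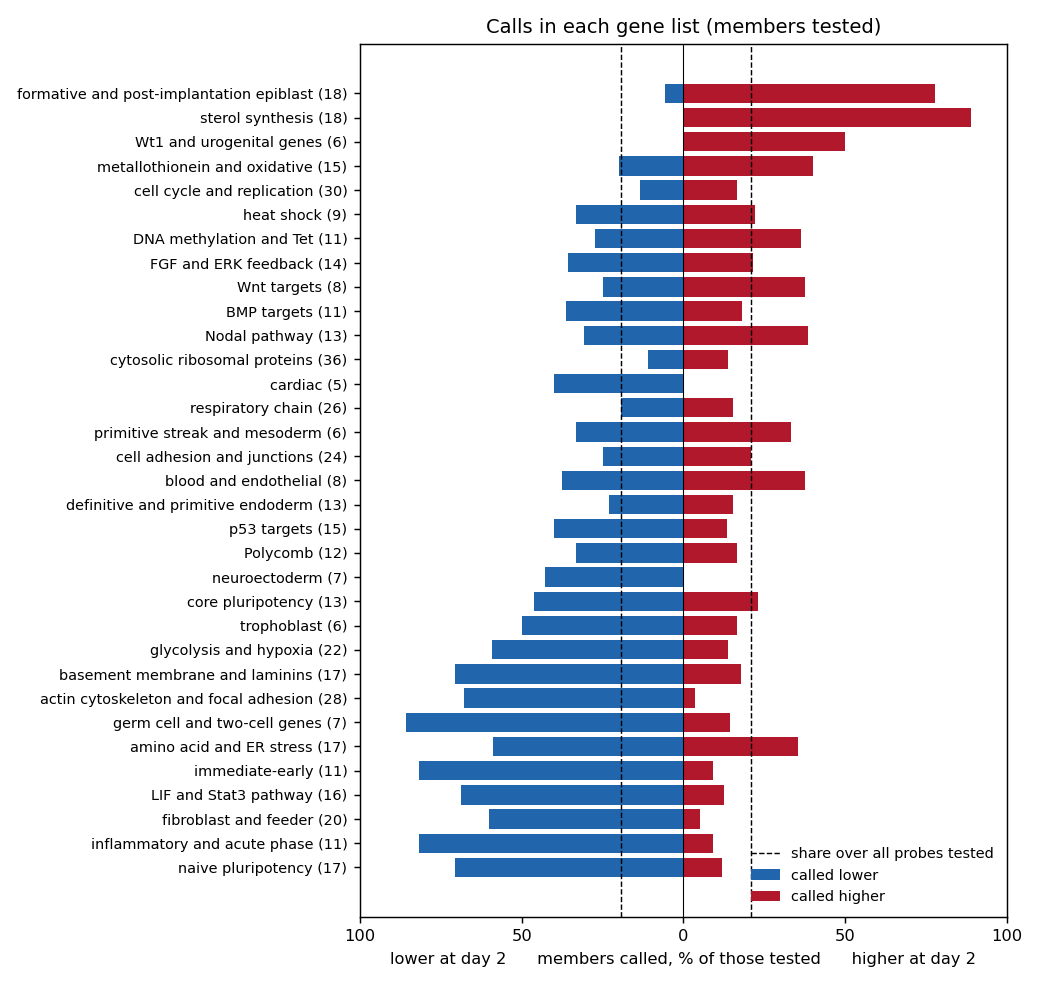
Share of tested members called lower (left) and higher (right) in each of the 33 gene lists, with the number tested in brackets and the share over all probes tested as dashed lines (19.3% lower, 20.9% higher). Epiblast and sterol lists extend far right, and naive, LIF, inflammatory and fibroblast lists far left.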

How the data were processed

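Each treatment and day had 1 array, an Illumina Mouse-6 bead array of one colour. The authors' deposited series matrix holds log2 values. Set against the deposited array tables of raw intensity, per the file headers 1 value per probe with no detection p, it equals quantile-normalised log2 intensity without background correction within 0.006 for 27492 of 27495 probes, so scale, centring and direction are known. Neither software nor genome build is given in the sources used here. Probe genes came from the platform annotation: 19420 probes had 1 symbol, 6 several and 8069 none.

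Day 2 was tested against day 0 with treatment as a block (limma 3.58.1, R 4.3.3; 3 coefficients, 1 residual and 1.956 prior degrees of freedom, Benjamini-Hochberg, threshold 0.05) on probes exceeding the median of 2 or more of the 4 arrays. The fit was tested on simulated data. Pairing by treatment is taken from the labels. A gene was represented by its brightest probe. Named genes are the 15 largest rises and falls, the 4 markers, and called or extreme members of 33 lists of 677 genes, of which 461 were tested. Other genes, such as the uncalled ones in several lists, were named after their values were seen. The lists, the comparison and its markers were chosen with earlier results of these data known. Alternatives varied block, arrays, background correction, scaling, filter, spread model and probe choice. No batch is given, and the number of arrays limits the precision.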

Additional observations from a re-analysis of the deposited data

Results flagged for a closer look

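In 5 of the 461 tested list genes the Noggin and the mock pair moved in opposite directions by at least 0.11, the median gap between pairs, and the difference between the pairs was not tested for any of them. The claudin gene Cldn3 differed by 0.15 in the Noggin pair and -0.11 in the mock pair. The histone methyltransferase gene Ehmt2 differed by -0.15 and 0.17. The ribosomal protein genes Rpl6 and Rps9 differed by -0.12 and 0.16, and by -0.14 and 0.11. The calcium release channel gene Ryr2 differed by -0.15 and 0.2. None of the 5 was called between the days, which follows from how they were picked, as opposite moves leave a small mean against a wide gap. At any size, 45 of the 461 list genes had opposite signs in the pairs.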

How the results depend on the processing

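The 5755 calls rest on a spread borrowed across probes. Leaving out each array in turn, with day as the only term since 3 arrays leave no residual degree of freedom under the block, gave 0 to 5093 calls. The 0 came without the Noggin day 0 array (limma, smallest adjusted p = 0.0503, 5225 probes at an unadjusted p under 0.05, all 30 named genes losing the call), and 574 came without the mock day 0 array, where 6 of the 30 lost it. A test against 1.5-fold (limma treat), chosen after seeing the data, called 310 probes, 131 higher and 179 lower. Background correction with normexp raised the probes past 2-fold in both pairs from 498 to 830 (offset 50) and 1231 (offset 16). Without the block 7128 probes were called, with all 6 arrays 4227, and with median scaling 7603, of which 56.32% were higher against 52.04%. None of the 30 genes with the largest changes turned direction under these alternatives. Of 297 list medians recomputed under alternatives, 23 changed sign, in 14 lists whose median differed from 0 by at most 0.205, and 111 moved by more than the list's own SD between the pairs; the cause was not tested. With no filter, an alternative chosen after seeing the data for single genes, all 30 kept the call.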

Other observations

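Several large changes fell outside the gene groups above, and the genes here were chosen after their values were seen. Bcl11a, a zinc finger repressor, was at 7.01 and 7.18 on day 0 and at 8.94 and 9.13 on day 2, and the netrin receptor gene Unc5b at 8.77 and 8.79, then 10.69 and 10.74. Hes6, a helix-loop-helix factor, rose by 1.73, the heparin-binding growth factor gene Mdk by 1.62, the Myc relative Mycl by 1.56 and the tight junction gene Cgn by 1.50. In the other direction Fabp3, a fatty acid binding protein gene, went from 13.24 and 13.25 to 10.64 and 10.90, and Txnip, an inhibitor of thioredoxin and of glucose uptake, from 11.79 and 11.86 to 9.18 and 9.42. Thbd, which encodes thrombomodulin, and the transcription factor gene Mitf fell by 2.41 and 2.25. Bcl11a passed the filter through day 2 alone and Thbd through day 0 alone; with no filter limma's adjusted p was 0.019 for both, and for the others it was 0.0128 with the filter.

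Of 6 urogenital genes tested, Wt1 among them, 3 rose and 3 were not called, against 20.9% higher over all probes. Podxl, a sialomucin of kidney podocytes and of stem cells, went from 8.67 and 8.82 to 9.96 and 10.11. Pax8 rose from 6.99 and 7.01 to 7.65 and 7.70. It passed the filter through day 2 alone, and with no filter limma's adjusted p was 0.0202. Pax2, Eya1, Emx2 and Cited1 were below the filter. Of the 15 metallothionein and oxidative stress genes, 6 rose and 3 fell, with the peroxiredoxin gene Prdx1 higher by 0.64 and mitochondrial superoxide dismutase, Sod2, lower by 0.92. Of 15 p53 targets 2 rose and 6 fell, against 20.9% and 19.3% over all probes.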
